A study of Mus musculus with 43 samples.

Results

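The 10 genes described here encode enzymes that make, recycle and take apart glutathione and that handle the mercapturates derived from it. They are Gclc, Gclm, Gss, Gsr, Ggt1, Dpep1, Ggct, Nat8, Acy1 and Acy3. They were taken by symbol from an expression table of 54532 genes, of which 16053 reached a level of 1 TPM (a share of all transcripts, corrected for their length) in at least 1 segment and were compared. All 10 were found and all 10 were among the genes compared. The profiles are of proximal tubules dissected by hand from the kidneys of female C57BL/6 mice aged 6 to 8 weeks, for which the labels name no treatment and no engineered allele. The tubule has 3 successive segments, and the study asked how they differ. RNA-seq libraries numbered 6 from S1, 6 from S2 and 7 from S3, each made from a pool of 2 to 5 tubules. The authors gave 1 TPM value per gene and segment, so the spread between libraries and the read depth are unknown and no test was possible. Of the numbers in the sample titles, whose meaning the labels do not give, S1 and S2 shared 0, S1 and S3 shared 2, and S2 and S3 shared 2.

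Glutathione is a tripeptide of glutamate, cysteine and glycine. It is built in the cytosol by glutamate-cysteine ligase and glutathione synthetase, and kept reduced by glutathione reductase. Outside the cell, the brush border of the proximal tubule cleaves it and its conjugates, first with gamma-glutamyltransferase and then with dipeptidases, so that the amino acids can be taken up again. Cysteine conjugates that re-enter the cell can be acetylated to mercapturates, which leave in the urine, and acylases can remove that acetyl group again.

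The labelled tissue was checked first. Lrp2, Cubn, Hnf4a and Aqp1, which mark the proximal tubule in general, were present in every segment, with a lowest level of 33.0 TPM (Aqp1 in S1). The 5 S1 markers summed to 18372 TPM in S1, 2434 TPM in S2 and 34.3 TPM in S3, and the 4 S3 markers to 3.9, 2723 and 4922 TPM. The 3 S2 markers (Slc22a6, Slc13a3 and Slc22a8) summed to 305.5, 793 and 2.8 TPM, and most of the S1 sum was Slc22a8, at 297 TPM against 349 TPM in S2. Markers of other cells were not level between segments. The 7 endothelial markers summed to 55.9, 549 and 221 TPM in S1, S2 and S3, with all 7 highest in S2 and none at 0. The 7 immune markers summed to 5.1, 54.3 and 8.5 TPM and the 6 stromal markers to 2.1, 18.8 and 1.7 TPM, again with each marker highest in S2. Of 3 thick ascending limb markers, Umod was at 0.2, 21.1 and 29.1 TPM, Slc12a1 at 0.4, 0.3 and 1.0 TPM, and Cldn16 at 0, 0 and 0.1 TPM. The 6 collecting duct markers summed to 28.4, 6.2 and 0.4 TPM, nearly all of it Aqp3, while Aqp2 stayed between 0.1 and 0.5 TPM. The part that these cells play in the results below was not tested.

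Promoter windows from RefSeq (build GRCm38.p6, 250 bases before to 50 after a start) were found for 8 of the 10 genes, in 12 windows. The 5 windows below belong to genes with different patterns along the tubule: Gclm, Ggct and Ggt1, highest in S3, Dpep1, highest in S1, and Nat8, highest in S2. Motifs searched on both strands were TGACNNNGC, the core of the antioxidant response element bound by NRF2, and GTTAAT, a half-site of HNF1. Capitals mark the matches, and the matches in these windows do not overlap. The printed windows do not stand for all: each but that of Dpep1 holds a match. The windows of Gss, Acy1 and Acy3, genes also highest in S3, hold none and are not printed.
Gclm, chr3:122245307-122245606, plus strand: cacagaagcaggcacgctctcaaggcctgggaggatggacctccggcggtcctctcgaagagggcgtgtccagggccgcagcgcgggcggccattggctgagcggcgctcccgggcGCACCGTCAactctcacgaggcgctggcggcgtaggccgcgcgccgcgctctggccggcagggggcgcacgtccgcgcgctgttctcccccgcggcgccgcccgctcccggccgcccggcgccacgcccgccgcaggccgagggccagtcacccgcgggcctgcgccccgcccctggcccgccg
Ggct, chr6:54992818-54993117, minus strand: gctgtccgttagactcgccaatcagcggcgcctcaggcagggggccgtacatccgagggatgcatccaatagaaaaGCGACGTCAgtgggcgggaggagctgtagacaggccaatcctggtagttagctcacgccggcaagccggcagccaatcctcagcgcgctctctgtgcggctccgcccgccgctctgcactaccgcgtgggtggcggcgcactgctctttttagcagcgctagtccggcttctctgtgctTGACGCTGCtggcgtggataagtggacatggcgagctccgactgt
Ggt1, chr10:75571310-75571609, plus strand: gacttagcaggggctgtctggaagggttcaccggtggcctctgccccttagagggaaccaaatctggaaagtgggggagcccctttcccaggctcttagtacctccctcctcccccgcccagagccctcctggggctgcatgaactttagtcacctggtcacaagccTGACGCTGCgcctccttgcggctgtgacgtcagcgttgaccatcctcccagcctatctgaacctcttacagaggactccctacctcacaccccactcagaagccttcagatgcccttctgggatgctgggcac
Dpep1, chr8:123185985-123186284, plus strand: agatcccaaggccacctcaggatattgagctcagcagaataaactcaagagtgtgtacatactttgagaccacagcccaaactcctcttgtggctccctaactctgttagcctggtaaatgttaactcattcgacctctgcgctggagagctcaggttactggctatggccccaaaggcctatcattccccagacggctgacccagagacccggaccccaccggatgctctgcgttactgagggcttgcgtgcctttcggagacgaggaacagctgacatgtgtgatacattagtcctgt
Nat8, chr6:85832230-85832529, minus strand: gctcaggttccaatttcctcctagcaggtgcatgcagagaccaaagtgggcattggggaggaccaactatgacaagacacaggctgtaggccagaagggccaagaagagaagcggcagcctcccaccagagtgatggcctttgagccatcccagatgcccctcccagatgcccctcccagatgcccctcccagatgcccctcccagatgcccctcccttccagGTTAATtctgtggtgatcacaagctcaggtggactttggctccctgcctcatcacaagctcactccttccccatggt

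With the start of the transcript at position 0, the antioxidant core was matched at positions -134 to -126 of Gclm, on the opposite strand. In Ggct it was matched at -174 to -166 on the opposite strand and at 5 to 13 on the gene's own. Of 4 Ggt1 windows 3 held it, the window printed above among them at -83 to -75. Counted over the 12 windows, 5 held this core, in 3 genes, and 12.4% of all 32851 RefSeq windows did. The HNF1 half-site was found in 1 of the 12 windows, at -27 to -22 of the Nat8 window printed above, and in 7.1% of all windows. The windows of Gss, Acy1, Acy3 and Dpep1 held neither string of letters. A match is a stretch of letters and was not tested as a binding site. The expression values are per gene, so which of the Ggt1 or Nat8 starts was used in these tubules was not analysed here.

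Most of these genes were lowest in S1 and highest in S3. The order S1 below S2 below S3 was found for 8 of the 10, against 20.9% of all genes compared and 36.5% of the 1706 genes that reach 100 TPM in their highest segment, as all 10 do. The exceptions were Dpep1, which ran the other way, and Nat8, which peaked in S2. The summed level of the 10 genes was 1354 TPM in S1, 6133 TPM in S2 and 9171 TPM in S3, which is 0.135%, 0.613% and 0.917% of each total. The totals differed in make-up: in S1, S2 and S3, genes of the mitochondrial genome took 6.5%, 16.0% and 9.72%, Gpx3 11.4%, 1.27% and 0.349%, and Kap 0.00565%, 6.43% and 9.57%, and 12174, 15121 and 12873 genes reached 1 TPM. Their part in the differences was examined only by the rescaling described with the processing. In bulk tubules, a lower level from fewer cells with the transcript cannot be told apart from less transcript per cell.

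**Figure D1:**
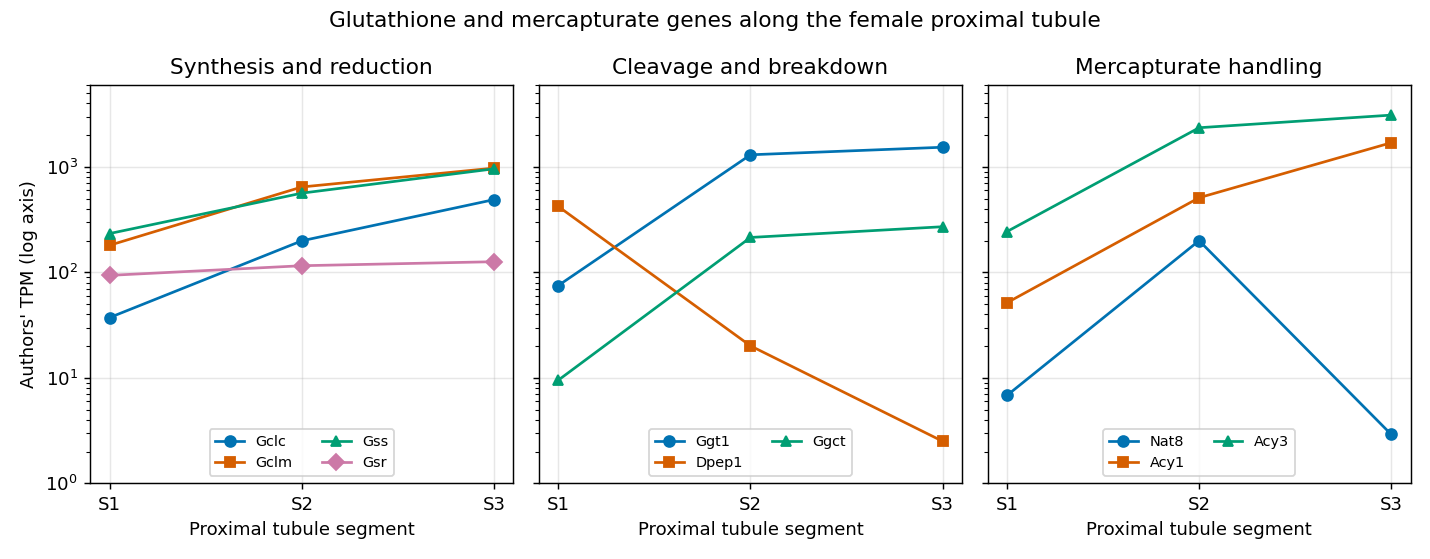
TPM of the 10 genes (vertical log axis, authors' value, 1 per segment and no error bars) in S1, S2 and S3 of female mice, grouped by role. Lines join the values of 1 gene. The lines of 8 genes climb towards S3, Dpep1 declines (422 TPM in S1, 2.5 TPM in S3), and Nat8 peaks at 200.0 TPM in S2.

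The 3 genes of synthesis stepped up along the tubule. Gclc, the catalytic subunit of glutamate-cysteine ligase, which carries out the first and rate-limiting step, lies on chromosome 9 from 77754535 to 77794489 (GRCm38.p6). Its level was 37.3 TPM in S1, 199 TPM in S2 and 490.2 TPM in S3. S1 was thus 5.35-fold below S2 and 13.1-fold below S3, and S2 was 2.46-fold below S3. Gclm (chromosome 3, 122245487 to 122267215) encodes the modifier subunit, which makes the ligase more active at the glutathione levels of a cell. Gclm had 181 TPM in S1, 646 TPM in S2 and 976 TPM in S3, a smaller range of 5.39-fold. Gss (chromosome 2, 155563181 to 155592810), glutathione synthetase, which adds glycine, had 234, 565 and 961 TPM and a range of 4.11-fold. Between S2 and S3 neither Gclm (1.51-fold) nor Gss (1.7-fold) differed 2-fold. Gssos2, a non-coding RNA gene that overlaps Gss by 24933 bases, was at 0.8, 5.7 and 8.5 TPM, and the protocol names no strand marking, so reads of both could be assigned to either.

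The subunits of the ligase did not keep one proportion. The TPM of Gclc divided by that of Gclm was 0.206 in S1, 0.309 in S2 and 0.502 in S3, so the modifier was the more abundant transcript throughout and its lead was smallest in S3. Gss over Gclc moved the other way and was 6.27 in S1, 2.83 in S2 and 1.96 in S3. These ratios describe transcripts and not protein. Because both genes of a ratio stand in the same column, a common scaling of that column leaves the ratio as it is.

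Gsr, glutathione reductase, which restores glutathione from its oxidised form with NADPH, was nearly level. It had 93.7 TPM in S1, 116 TPM in S2 and 126 TPM in S3 and differed less than 2-fold in each comparison, 1.35-fold at most. The gene lies on chromosome 8 from 33653238 to 33698162. It was the only one of the 10 that stayed under 2-fold throughout.

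The enzymes of extracellular cleavage were opposed. Ggt1 (chromosome 10, 75561076 to 75586193), the brush-border gamma-glutamyltransferase that takes the glutamyl group from glutathione and its conjugates, had 75.1 TPM in S1, 1305 TPM in S2 and 1539 TPM in S3. S1 was 17.4-fold below S2 and 20.5-fold below S3, while S2 and S3 were 1.18-fold apart. Dpep1 (chromosome 8, 123186235 to 123201812), a membrane dipeptidase of the same surface that splits the cysteinylglycine left by that step, had 422 TPM in S1, 20.1 TPM in S2 and 2.5 TPM in S3. S1 was 21.0-fold above S2 and 169-fold above S3, and S2 was 8.04-fold above S3. The table has 1 decimal, which leaves the S1 to S3 fold of Dpep1 between 165 and 172. Dpep1 over Ggt1 was 5.62 in S1, 0.0154 in S2 and 0.00163 in S3, so the transcript of the dipeptidase exceeded that of the transferase in S1 and in no other segment.

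Ggct (chromosome 6, 54985095 to 54992960), the cytosolic gamma-glutamyl cyclotransferase that releases 5-oxoproline from gamma-glutamyl amino acids, had its segments in the same order as Ggt1. It had 9.5 TPM in S1, 214.5 TPM in S2 and 271 TPM in S3, a range of 28.5-fold, and it was 1.26-fold lower in S2 than in S3. Ggct over Ggt1 was 0.126 in S1, 0.164 in S2 and 0.176 in S3. This was the narrowest span of the 6 ratios examined.

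**Figure D2:**
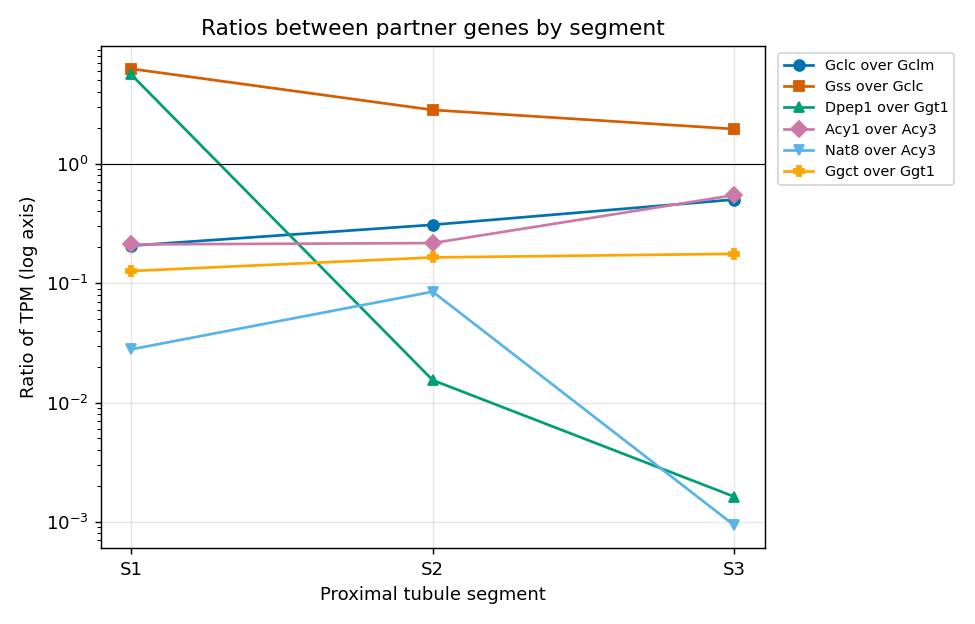
Ratio of the TPM of 2 genes (vertical log axis) in each segment, for 6 pairs, each point from 1 value per gene and segment. Dpep1 over Ggt1 is 5.62 in S1 and 0.00163 in S3, whereas Ggct over Ggt1 stays between 0.126 and 0.176.

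Mercapturate genes followed no single course. Nat8 (chromosome 6, 85830387 to 85836857) encodes the acetyltransferase of the endoplasmic reticulum that, in the human enzyme, completes mercapturates from cysteine conjugates. It had 6.8 TPM in S1, 200.0 TPM in S2 and 2.9 TPM in S3, so that S1 was 29.4-fold below S2, and S2 was 69-fold above S3. S1 and S3 were 2.34-fold apart, and on the log2(TPM + 1) scale their difference was 1.00, on the 2-fold line, where the rounding of the table alone allows 0.97 to 1.03. As given above, endothelial, immune and stromal markers were also highest in S2. So were the 3 S2 markers of the tubule. In S1, S2 and S3, Slc22a6 had 6.0, 216.8 and 1.0 TPM and Slc13a3 had 2.2, 226.8 and 1.1 TPM. Slc22a8 had 297.3, 349.1 and 0.7 TPM. Which cells held the Nat8 transcript was not tested.

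Nat8 belongs to a cluster of closely related genes, between which the authors' counting could have split reads, so its values and those of its relatives are uncertain. The most abundant relative was Nat8f1, with 825 TPM in S1, 1519 TPM in S2 and 378 TPM in S3, and it too was highest in S2. Nat8f5 had 2.3, 34.1 and 0.2 TPM and Nat8f6 1.0, 46.1 and 0.1 TPM. In the list of 12 acetyltransferase and acylase relatives, 11 were compared and 8 of them were highest in S2, as were 37.2% of all genes compared. In this list 5 of the 11 reached 10 TPM in their highest segment.

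Both acylases were highest in S3. Acy3 (chromosome 19, 3986570 to 3990007), the aminoacylase that in mouse removes the acetyl group of mercapturates and of aromatic amino acids, had 244 TPM in S1, 2356 TPM in S2 and 3104 TPM in S3. S1 was 9.66-fold below S2, and the level was 1.32-fold lower in S2 than in S3. Acy1 (chromosome 9, 106432981 to 106438236), aminoacylase 1, which acts mainly on acetylated aliphatic amino acids, had 51.5 TPM in S1, 511 TPM in S2 and 1698 TPM in S3. S1 was 9.92-fold below S2, and S2 was 3.32-fold below S3, the largest step between S2 and S3 among the 8 genes that climbed. Acy1 over Acy3 was 0.211 in S1, 0.217 in S2 and 0.547 in S3. Nat8 over Acy3, the transcript for acetylation over that for its removal, was 0.0279 in S1, 0.0849 in S2 and 0.000934 in S3. This ratio carries the uncertainty of the Nat8 values given above, and in S3 it rests on 2.9 TPM of Nat8. It does not measure either reaction.

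Ranked among the 16053 genes compared, the 10 changed places between segments. In S1 Dpep1 was the highest of them at rank 320, followed by Acy3 at 545, Gss at 577 and Gclm at 721, with Nat8 last at 7545. In S2 Acy3 led at rank 45, followed by Ggt1 at 79, Gclm at 178, Gss at 207 and Acy1 at 240, with Dpep1 last at 4497. In S3 Acy3 stood at rank 34, Acy1 at 66 and Ggt1 at 74, with Gclm at 118 and Gss at 120. Nat8 at 9893 and Dpep1 at 10275 closed that order, below the middle of the genes compared.

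The differences were then counted. A gene counted as higher or lower when its log2(TPM + 1) differed by at least 1, which is 2-fold. For S1 minus S2, 8 of the 10 were lower in S1 (17.7% of all genes compared, and 17.5% of the genes that reach 100 TPM). Dpep1 alone was higher (6.62% and 13.5%). The median difference was -2.83, against -0.18 over all genes compared. With quantile normalization the shares of all genes were 9.6% higher and 12.1% lower, and with median-of-ratios scaling 8.87% and 14.8%. For S1 minus S3, 7 were lower (13.1% of all genes compared and 20.2% of those that reach 100 TPM). Dpep1 and, at the line, Nat8 were higher (10.5% and 17.5%). The median was -3.04, against -0.01 over all genes compared.

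S2 minus S3 gave smaller differences. Gclc and Acy1 were lower in S2 (2.24% of all genes compared and 3.22% of those that reach 100 TPM), by -1.29 and -1.73. Dpep1 and Nat8 were higher in S2 (8.74% and 7.91%), by 2.59 and 5.69. The other 6 were each lower in S2 by less than 2-fold. The median was -0.37, against 0.12 over all genes compared. With quantile normalization 5.81% of all genes were higher and 3.39% lower in S2. S1 minus S2 and S1 minus S3 use the same S1 values, and the 3 comparisons share all 3 columns, so the counts are not independent of each other.

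**Figure D3:**
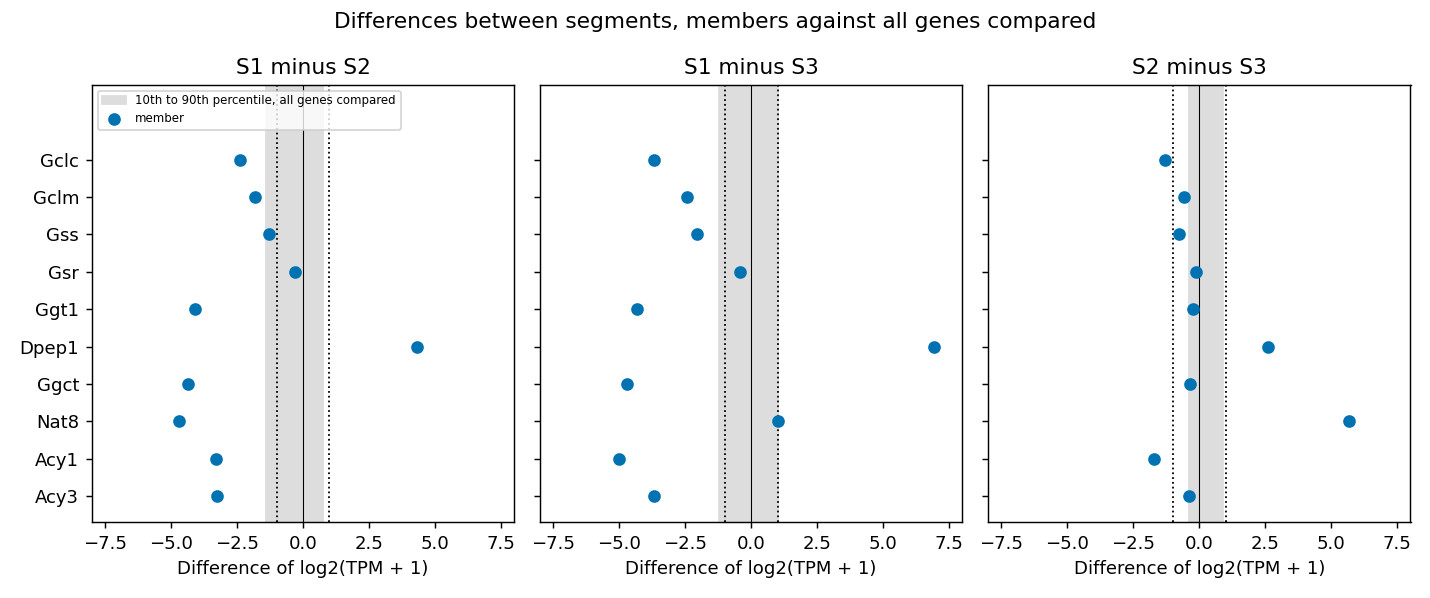
Difference of log2(TPM + 1) between segments for each of the 10 genes (blue points), with dotted lines at 2-fold in either direction and a grey band from the 10th to the 90th percentile of the 16053 genes compared. For S1 minus S2 and S1 minus S3, Dpep1 lies far to the right and most others to the left. For S2 minus S3, Nat8 and Dpep1 lie to the right, and Acy1 (-1.73) and Gclc (-1.29) past the left 2-fold line. The other 6 lie left of 0 by less than 2-fold.

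S2 was placed between its neighbours on the log2(TPM + 1) scale, with S3 at 0 and S1 at 1. Ggt1 at 0.0548, Ggct at 0.0718 and Acy3 at 0.108 were close to their S3 level already in S2. Gclm was at 0.245, and Acy1 at 0.345, Gclc at 0.351, Dpep1 at 0.375 and Gss at 0.376 lay further towards S1. Nat8, whose S2 level was above both neighbours, fell outside the span at 5.69, and Gsr did not differ 2-fold. The median of all 9 was 0.345, beside 0.234 for the 3789 genes of the table that differ 2-fold between S1 and S3. Among genes with S2 between its neighbours, it was 0.295 for the 8 and 0.274 for 3125 genes of the table.

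The wider pathway was described with 8 lists of 116 different genes, of which 107 were compared. Of these genes, 4 stand in more than 1 list, Srxn1 and Abcc4 among them, so the counts of the lists are not independent. Shares of all genes compared are given in brackets beside each count. Among 12 other enzymes of glutamyl peptides and dipeptides, 10 were compared: S1 was lower than S2 for 5 of them (17.7%) and lower than S3 for 7 (13.1%), and higher than S2 (6.62%) or S3 (10.5%) for none. None was higher (8.74%) or lower (2.24%) in S2 than in S3. Cndp2, a cytosolic dipeptidase that also cleaves cysteinylglycine, had 64.3 TPM in S1, 734 TPM in S2 and 759 TPM in S3. Further enzymes able to cleave it had lower levels in S1 than in S3. Lap3, leucine aminopeptidase, had 103, 258.5 and 356 TPM and Anpep, aminopeptidase N of the brush border, 20.2, 37.3 and 69.0 TPM. Dpep1, as given above, was higher in S1 than in S3. Chac2, which breaks down glutathione in the cytosol, had 24.7, 58.8 and 87.2 TPM, and Oplah, 5-oxoprolinase, 48.6, 88.2 and 122 TPM.

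Of 17 genes of cysteine supply, 16 were compared. In S1 against S2, 9 were lower (17.7%) and 3 higher (6.62%), and in S1 against S3, 9 were lower (13.1%) and 1 higher (10.5%). Cth, cystathionine gamma-lyase, which makes cysteine from cystathionine, had 54.0 TPM in S1, 288 TPM in S2 and 426 TPM in S3. Mat2a, which makes S-adenosylmethionine, had 162, 664 and 1087 TPM, and Bhmt2, a methyltransferase that makes methionine from homocysteine, 0.9, 167 and 169 TPM. The partners of the apical cystine transporter were opposed: Slc3a1, its heavy subunit, had 317, 774 and 994 TPM, and Slc7a9, its light subunit, 471, 170.4 and 180.5 TPM (S1, S2, S3).

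Cysteine breakdown held genes of both directions. Of 11 genes compared, S1 was below S2 for 4 (17.7%) and above it for 4 (6.62%), and below S3 for 4 (13.1%) and above it for 4 (10.5%). Cdo1, cysteine dioxygenase, had 1.0 TPM in S1, 120.5 TPM in S2 and 288.5 TPM in S3, and Csad, which leads on to taurine, 101, 462 and 705 TPM. Kyat3, an aminotransferase that can also act as a beta-lyase on cysteine conjugates, had 13.8, 290.5 and 603 TPM. In the other direction Ethe1, a mitochondrial persulfide dioxygenase, had 237, 51.9 and 34.0 TPM, Suox, sulfite oxidase, 85.3, 25.9 and 6.2 TPM, and Got1, the cytosolic aspartate aminotransferase, 150.2, 23.2 and 14.3 TPM.

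Of 13 transporters of glutathione, its conjugates and organic anions compared, S1 was above S3 for 6 (10.5%) and below it for 2 (13.1%). S2 was above S3 for 6 (8.74%) and below it for 1 (2.24%), while S1 against S2 gave 4 lower (17.7%) and none higher (6.62%). The list holds the 3 S2 markers, which were chosen for that segment; among the other 10, S1 was above S3 for 4 and below it for 2, S2 was above S3 for 3 and below it for 1, and S1 was below S2 for 2. Abcc2, the apical conjugate pump MRP2, had 65.6 TPM in S1, 49.1 TPM in S2 and 3.8 TPM in S3. Abcc3, a basolateral pump of the same family, had 0.3, 98.6 and 203 TPM. Slc22a6 and Slc22a8, organic anion transporters that can carry mercapturates and are among these markers, had 6.0, 217 and 1.0 TPM and 297, 349 and 0.7 TPM.

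Of 13 redox partners, S1 was above S2 for 2 (6.62%) and below it for none (17.7%). For S1 against S3, 2 were higher in S1 (10.5%) and 1 lower (13.1%). Glrx, glutaredoxin, which uses glutathione to reduce protein disulfides, had 62.1 TPM in S1, 12.4 TPM in S2 and 0.5 TPM in S3. Of 16 compared genes of the NRF2 response and NADPH supply, S1 was above S2 for 4 (6.62%) and below it for 1 (17.7%), and above S3 for 5 (10.5%) and below it for 1 (13.1%). Nqo1, a textbook NRF2 target, had 20.8, 57.4 and 72.4 TPM, while Hmox1, another, had 55.9, 18.2 and 22.1 TPM and Srxn1, sulfiredoxin, 73.4, 19.4 and 19.1 TPM. Idh1, the cytosolic NADPH-producing isocitrate dehydrogenase, had 1014, 218 and 23.1 TPM. Of 20 glutathione S-transferases compared, S1 was above S2 for 4 (6.62%) and below it for 2 (17.7%). For S1 against S3, 9 were higher in S1 (10.5%) and 3 lower (13.1%). S2 was above S3 for 7 (8.74%) and below it for none (2.24%). Gstm1, at 239, 1994 and 3418 TPM, was among those lower in S1 than in S3. Mgst1, at 180.4, 148 and 2.3 TPM, was among those higher in S1 than in S3.

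**Figure D4:**
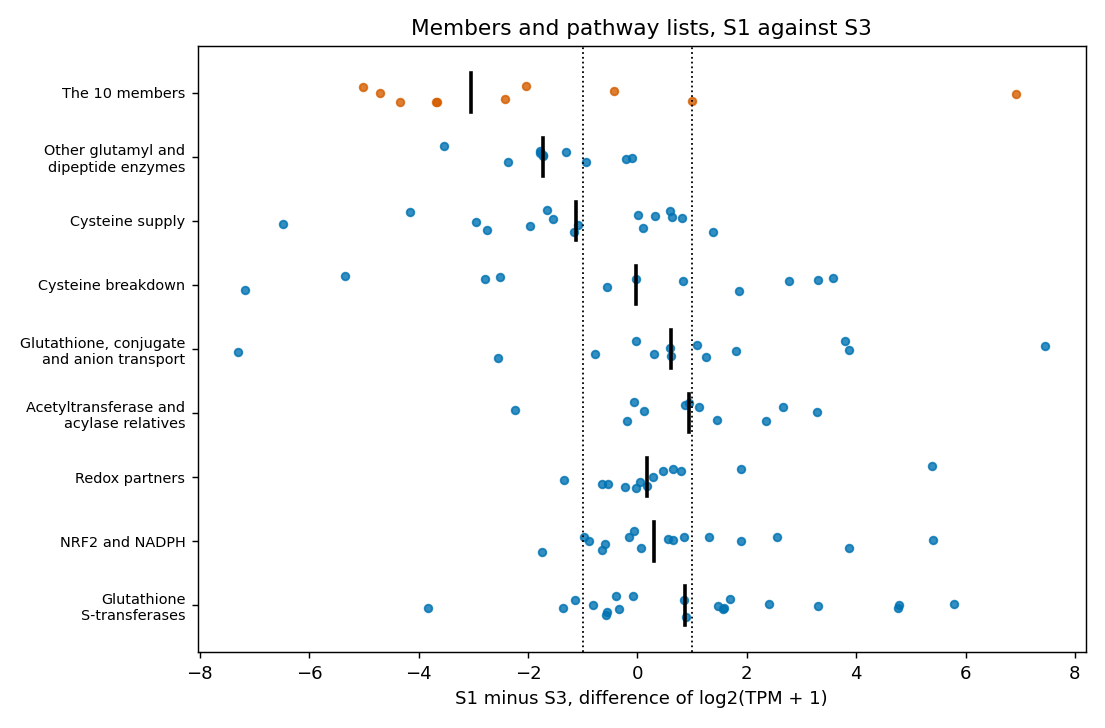
S1 minus S3 difference of log2(TPM + 1) for the 10 genes (orange) and for the compared genes of 8 pathway lists (blue), 1 point per gene, with a black bar at each median and dotted lines at 2-fold. The medians were -3.04 for the 10 genes, -1.73 for other glutamyl and dipeptide enzymes, -1.12 for cysteine supply, and 0.88 for glutathione S-transferases.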

How the data were processed

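RNA was made into cDNA with a SMARTer V4 kit and Nextera XT libraries, per the labels' protocols, which name no molecular identifiers and no strand marking. Build mm10 and STAR, RSEM and cutadapt, among other tools, are named per the submitters' processing notes. Neither their role nor the gene annotation is stated there. TPM with 1 decimal, 1 value per gene and segment, is what the authors deposited, and the way libraries were combined is not stated either. Of 8 value columns 5 were left out, since their names fit none of the RNA-seq groups. ATAC-seq samples were not used here.

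From these values, differences of log2(TPM + 1) (pseudocount 1), TPM ratios and ranks were computed with Python 3.11.15, pandas 2.3.3 and NumPy 2.4.6, over genes with at least 1 TPM in at least 1 segment. A 2-fold difference, which describes these columns and is not a test, was the threshold. The code was tested on simulated data. TPM keeps no depth, so no counting interval was computed. Scales, filters, pseudocounts and thresholds were varied.

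The IDs of all 10 genes matched reference names. Genes, lists and comparisons were chosen with earlier results of these data known. Of the pathway lists, genes were named only at 10 TPM or more in their highest segment with a 2-fold difference in at least 1 comparison. Marker lists came from general knowledge. Positions and promoter windows are RefSeq's (GRCm38.p6, the assembly behind mm10). The comparison of protein sequences that was planned was not made.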

Additional observations from a re-analysis of the deposited data

How the results depend on the processing

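No library values exist in the table, so leaving out libraries could not be done. No paired analysis was possible because the table holds 1 value per segment. For S1 minus S3, the count of genes higher in S1 was 1, against 2, with a pseudocount of 10, with quantile normalization and at a 3-fold threshold. In that order, 3.97%, 11.7% and 5.0% of all genes compared were higher in S1, against 10.5%. Nat8 was the gene lost, at 0.38 with pseudocount 10 and 0.99 with quantile normalization. For S2 minus S3, the count of genes lower in S2 was 1 at a 3-fold threshold (Acy1) and 4 at a 1.5-fold threshold (Gclc, Acy1, Gclm and Gss), against 2. Of all genes compared, 0.667% were lower in S2 at the 3-fold and 5.6% at the 1.5-fold threshold, against 2.24%. The other 49 of 54 recounts stayed within 1.5 times, and no difference of 2-fold or more changed sign among the 10 genes, or among the 54 pathway genes that could be named by the rule, under the 3 scalings. Over all genes, a pseudocount of 10 left 654 lower in S1 than in S2, against 2840, and a pseudocount of 0.1 gave 4738. Quantile normalization moved the median of all genes by 0.27 for S1 minus S2 and -0.17 for S2 minus S3, median-of-ratios scaling by 0.18 and -0.15, and leaving out Gpx3, Kap and the mitochondrial genome's own genes moved it by -0.16 for S1 minus S2. The order S1 below S2 below S3 held for the same 8 genes under these 3 scalings. Of the differences of those 54 genes, the scalings took 9 under the 2-fold line and 12 past it, and left 465 on their side; Kyat3 and Abcc3 for S2 minus S3 were among the 9. This check, that of the ratios, the background of genes that reach 100 TPM, the position of S2 among genes where it lies between its neighbours and the transporter counts without S2 markers were added after the data were seen.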
